A study of Mus musculus with 6 samples.

Results

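Glucose transporters and enzymes of glycolysis were compared between mouse ESCs and the NPCs derived from them. A list of 10 genes was set by Ensembl identifier, and 8 of them have a row among the 17144 genes of the table: the transporter genes Slc2a1 and Slc2a3, the hexokinase genes Hk1 and Hk2, the phosphofructokinase genes Pfkp and Pfkl, the pyruvate kinase gene Pkm and the lactate dehydrogenase gene Ldhb. The other 2, Ldha and the threonine dehydrogenase gene Tdh, have no row and were not analysed here, so nothing is said of threonine breakdown or of the second subunit of lactate dehydrogenase. Affymetrix mouse arrays measured the RNA of 3 biological replicates of each cell type, each on an array of its own. The ESCs are wild type cells of the line V6.5, derived from a blastocyst of 129SvJae/C57B6 F1 background, grown in DMEM with serum and LIF. The NPCs, wild type and of the same background, were derived from these ESCs in vitro and kept dividing on polyornithine and laminin in N3 medium with bFGF and EGF. All samples thus come from a single ESC line, and cell type cannot be told apart from culture medium.

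Glycolysis breaks glucose down to pyruvate in the cytoplasm. Facilitative transporters of the SLC2A (GLUT) family let glucose into the cell, hexokinases trap it as glucose 6-phosphate, phosphofructokinase commits it to the pathway, and pyruvate kinase makes pyruvate, which lactate dehydrogenase interconverts with lactate. Several steps are served by more than a single gene, with products that differ in kinetics and in the tissues that express them. Pluripotent cells in culture are known for a high glycolytic flux, and mouse ESCs are also known for a dependence on threonine.

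Expression fell in NPCs at 7 of the 8 genes, and rose at none. The fall was largest at Slc2a3, for the high affinity transporter GLUT3, and next largest at Pfkp and Slc2a1, while Pkm fell by the least of the 7. Hk1, for the most widely expressed hexokinase, did not pass the test. Calls required both an adjusted p under 0.05 from limma (Benjamini-Hochberg adjustment over all 17144 genes) and means that differed by over 1.5-fold. By this rule 18.7% of all genes were called lower in NPCs, 15.4% higher and 34.1% in either direction. All 7 genes also differed by more than 2-fold, against 11.5% of all genes called lower at that threshold. The median log2 difference was -2.90 over the 8 genes and -0.04 over all genes. The 8 genes were all high in ESCs, the lowest being Hk1 with a mean of 8.23, against ESC array medians of up to 5.76. The other genes include low ones, which have less room to fall, and the list was chosen with earlier results of these data known. Of the called genes, 45.1% were higher in NPCs on the deposited scale. Centring the arrays on their medians, which moves the median difference of all genes to 0.12, made this share 55.6%, with 15.4% of all genes then called lower and 19.3% higher. The same 7 genes fell after centring. RNA came from whole cultures, so fewer cells that carry a transcript and less of it per cell cannot be told apart.

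**Figure D1:**
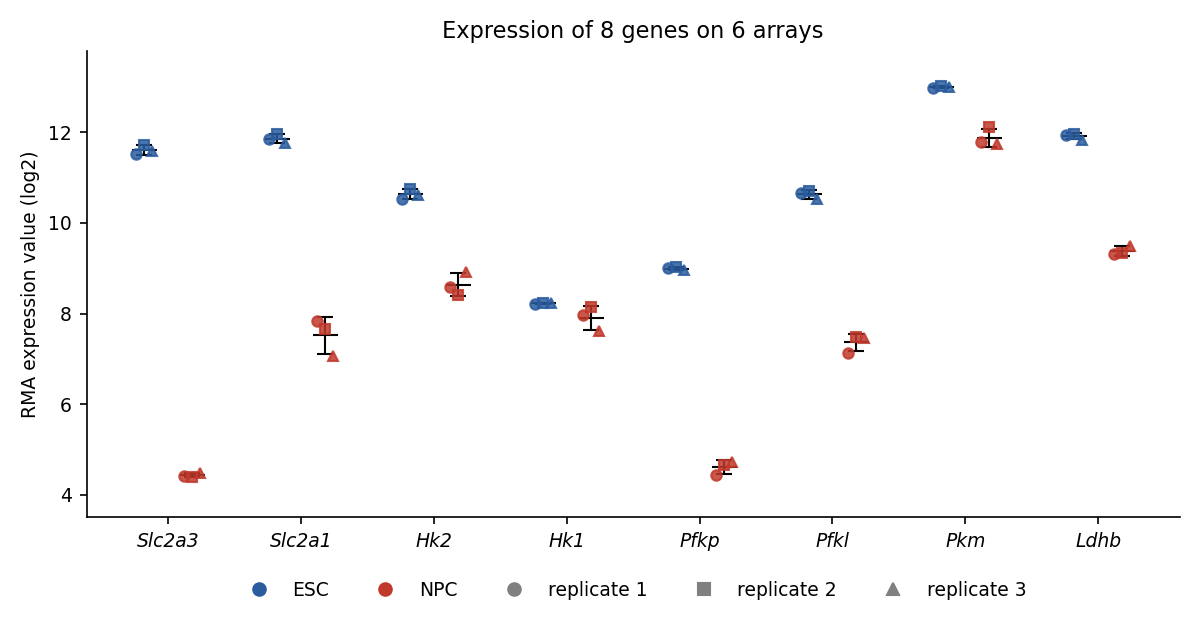
RMA expression value (log2 scale) of the 8 genes on each array, ESCs in blue and NPCs in red, with the replicate number as the symbol; the black line and bars are the mean and SD of 3 arrays. For every gene the 3 NPC arrays lie below the 3 ESC arrays, by a gap of 7.03 at Slc2a3 and of 0.085 at Hk1.

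The labels were checked with marker genes that could be named. Pou5f1 (OCT4), which marks pluripotent cells, had a mean log2 value of 12.44 in ESCs and 3.70 in NPCs. Fabp7, a marker of neural progenitors, had 3.78 in ESCs and 13.05 in NPCs. Of the 9 progenitor markers on the list, 6 could be named and all 6 rose, Nes and Vim among them, but names were mostly at hand for genes that rise in NPCs. Nanog, Sox1 and Pax6 could not be named and were not analysed here. Of the other cell types, Fbn1, the single nameable gene of 9 fibroblast markers, rose from 4.90 to 7.92, and the neuronal genes Dcx and Syt1, 2 of 6 on their list, rose by 1.08 and 2.59. The astrocyte genes Slc1a3 and S100b, 2 of 5 on their list, rose by 3.66 and 2.51, and the oligodendrocyte lineage genes Olig2 and Cnp, 2 of 6, by 3.81 and 0.88. No endoderm marker could be named. The part of these marker genes in the results below was not tested. NPC replicate 3 stands apart, since it correlated with the other NPC arrays across genes at r = 0.978 to 0.979, against 0.997 between NPC replicates 1 and 2 and 0.996 to 0.998 among ESC arrays. Arrays carry no count of molecules, and their number limits the precision of every mean.

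Slc2a3 (ENSMUSG00000003153_at) read 11.51, 11.72 and 11.60 in ESC replicates 1 to 3. In NPC replicates 1 to 3 it read 4.42, 4.39 and 4.48. The NPC arrays were thus close together and far below the ESC arrays. The log2 difference was -7.18 (standard error 0.086, 95% interval from -7.38 to -6.98, adjusted p = 1.97e-08 from limma), and only 17 genes of the table fell further. Ranked by percentile within its array, where 100 is the highest gene, Slc2a3 went from 99.1 ± 0.11 in ESCs to 34.1 ± 0.65 in NPCs (SD, n = 3 arrays). The table has no detection calls, so whether transcript was present at so low a value is not known, and the 145-fold ratio of the array values need not be that of the transcripts.

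Slc2a1 (ENSMUSG00000028645_at) encodes GLUT1, the most widely expressed glucose transporter and the main carrier at the barrier between blood and brain. It read 11.85, 11.97 and 11.76 in ESC replicates 1 to 3. In NPC replicates 1 to 3 it read 7.83, 7.65 and 7.06. Its NPC arrays were the most spread of the 8 genes, with replicate 3 lowest, and still lay 3.93 below the lowest ESC array. On the log2 scale Slc2a1 differed by -4.35 (standard error 0.19, 95% interval from -4.81 to -3.89, adjusted p = 2.90e-06 from limma), or 20.3-fold. Without NPC replicate 3 it was -4.12. The percentile of Slc2a1 went from 99.4 in ESCs to 73.4 ± 5.18 in NPCs (SD, n = 3 arrays), so that it remained above the middle of the NPC arrays.

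Hk2 (ENSMUSG00000000628_at) encodes the inducible hexokinase, abundant in muscle and in many tumours. It read 10.54, 10.75 and 10.61 in ESC replicates 1 to 3 and 8.59, 8.41 and 8.91 in NPC replicates 1 to 3. No NPC array came within 1.63 of an ESC array. The difference between NPCs and ESCs was -1.995 on the log2 scale (standard error 0.14, 95% interval from -2.32 to -1.67, adjusted p = 2.36e-05 from limma), or 3.99-fold. Hk1 (ENSMUSG00000037012_at), for the hexokinase that predominates in brain, read 8.22, 8.22 and 8.24 in ESCs, with an SD of 0.011. In NPC replicates 1 to 3 it read 7.96, 8.14 and 7.61. These arrays lay below those of ESCs, but the nearest pair was only 0.085 apart, and the spread in NPCs (SD 0.27) was close to the difference of means. That difference was -0.32 (standard error 0.14, 95% interval from -0.65 to -0.0015, unadjusted p = 0.0492 and adjusted p = 0.0912 from limma). The interval allows a difference of up to 1.57-fold. Without NPC replicate 3, the array where Hk1 was lowest, the difference was -0.18.

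Pfkp (ENSMUSG00000021196_at) encodes the platelet form of phosphofructokinase, which brain also expresses, and Pfkl (ENSMUSG00000020277_at) the liver form. Pfkp read 8.99, 9.02 and 8.96 in ESC replicates 1 to 3 and 4.43, 4.66 and 4.72 in NPC replicates 1 to 3. Its values kept within 0.3 of each other in each cell type and were 4.24 apart between them at the nearest. Pfkp differed by -4.39 on the log2 scale (standard error 0.097, 95% interval from -4.62 to -4.16, adjusted p = 1.40e-07 from limma), or 20.9-fold. The percentile of Pfkp went from 88.8 to 36.7 ± 2.34 (SD, n = 3 arrays), below the middle of the NPC arrays, and the caution given for Slc2a3 on low values applies. Pfkl read 10.67, 10.70 and 10.52 in ESC replicates 1 to 3, and 7.14, 7.48 and 7.47 in NPC replicates 1 to 3. It too showed no overlap, with 3.05 between the nearest arrays. The log2 difference was -3.27 (standard error 0.12, 95% interval from -3.55 to -2.99, adjusted p = 1.01e-06 from limma), or 9.64-fold, and the percentile went from 97.1 to 71.5.

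Pkm (ENSMUSG00000032294_at), for the pyruvate kinase of most tissues outside liver and red blood cells, remained among the highest genes of both cell types. It read 12.98, 13.02 and 13.01 in ESC replicates 1 to 3 and 11.79, 12.11 and 11.74 in NPC replicates 1 to 3. Its percentile was 99.9 in ESCs and 99.4 in NPCs, although every NPC array was lower. Pkm differed by -1.12 on the log2 scale (standard error 0.11, 95% interval from -1.39 to -0.86, adjusted p = 0.00015 from limma), or 2.18-fold. After median centring the difference was -0.97, just under 2-fold. The table holds a single value for the gene, which does not separate its splice forms. Ldhb (ENSMUSG00000030246_at), for the subunit of lactate dehydrogenase that predominates in heart, read 11.95, 11.95 and 11.83 in ESC replicates 1 to 3 and 9.30, 9.34 and 9.50 in NPC replicates 1 to 3. The cell types were 2.34 apart at the nearest arrays, with little spread in either. The log2 difference was -2.53 (standard error 0.088, 95% interval from -2.74 to -2.32, adjusted p = 8.82e-07 from limma), or 5.77-fold, and the percentile went from 99.4 to 92.0.

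**Figure D2:**
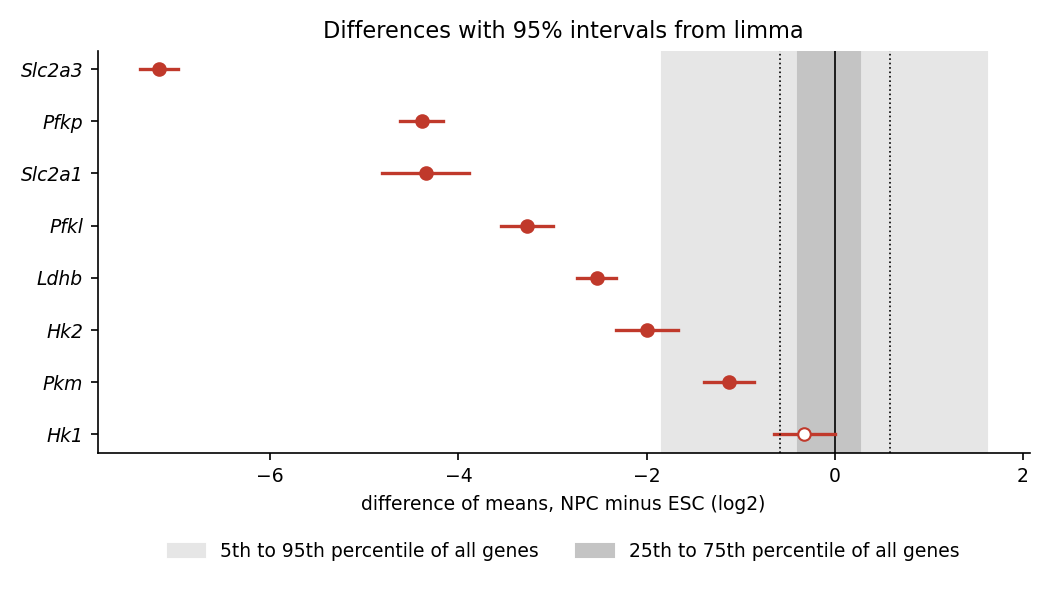
Difference of mean log2 values, NPC minus ESC, for each gene with its 95% interval from limma; filled points passed both thresholds and the open point did not, dotted lines mark 1.5-fold, and grey bands hold the middle of all 17144 genes. Slc2a3, Pfkp, Slc2a1, Pfkl, Ldhb and Hk2 lie below the 5th percentile of all genes (-1.83), and Hk1 lies within the band from the 25th to the 75th percentile.

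In order of size, the falls ran from Slc2a3 through Pfkp, Slc2a1, Pfkl, Ldhb and Hk2 to Pkm, with Hk1 last. The interval of Slc2a3 was clear of all others. The intervals of Pfkp and Slc2a1 overlapped widely and those of Ldhb and Hk2 touched, so neither of these neighbours is set apart in the order. All 8 genes had every NPC array below every ESC array, as had 32.6% of all genes. For a single gene with such a separation, exact permutation of 3 against 3 arrays gives p = 0.1, its smallest value.

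Genes that serve the same step were also compared with each other in the size of their change. For each pair the log2 difference between its genes was taken within each array, which shows unequal change and not which gene has more transcript. Slc2a3 minus Slc2a1 went from -0.25 ± 0.088 in ESCs to -3.09 ± 0.44 in NPCs (SD, n = 3 arrays each), a change 7.13-fold larger at Slc2a3 than at Slc2a1. Hk2 minus Hk1 went from 2.40 ± 0.11 to 0.73 ± 0.52, a shift of -1.67 on the log2 scale. Its NPC arrays were wide apart, at 0.63, 0.27 and 1.30 in replicates 1 to 3, with replicate 3 nearest to the ESC arrays. Pfkp minus Pfkl went from -1.64 ± 0.063 to -2.76 ± 0.057, a shift of -1.12 with little spread in either cell type. Slc2a3 and Pfkp read low in NPCs, so the shifts of their pairs need not be those of the transcripts. The cell types were separate in each of the 3 pairs. The exact permutation test (two-sided) gave p = 0.1 for each pair, the smallest this design allows, and 0.1 after Benjamini-Hochberg adjustment over the 3 pairs, so these differences do not pass a threshold of 0.05. The pair of lactate dehydrogenase genes could not be compared without Ldha.

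**Figure D3:**
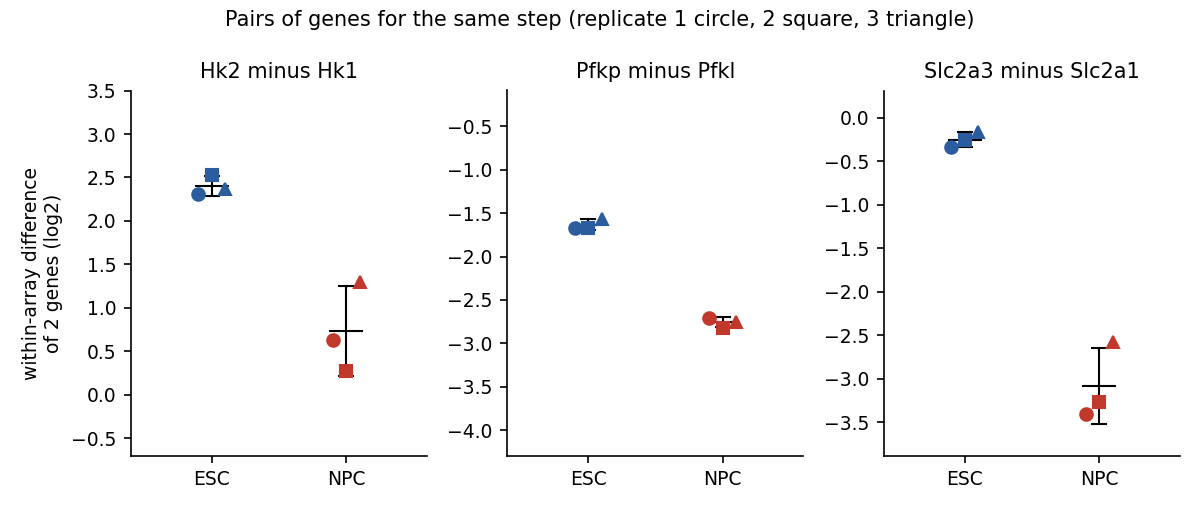
Log2 difference between 2 genes of the same step within each array, in ESCs (blue) and NPCs (red), with the mean and SD of 3 arrays in black; the 3 panels span the same number of log2 units, and the height of a point depends on the probes of both genes. The shift between cell types is -1.67 for Hk2 minus Hk1, -1.12 for Pfkp minus Pfkl and -2.83 for Slc2a3 minus Slc2a1.

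Within a cell type the genes varied less in ESCs. The SD of a gene lay between 0.011 and 0.11 among ESC arrays and between 0.046 and 0.40 among NPC arrays, and it was larger in NPCs for 7 of the 8 genes, as for 65.4% of all genes. Slc2a3 was the exception. NPC replicate 3 was above both other NPC arrays at 4 of the genes, below both at 3 and between them at Pfkl. The largest departure was at Slc2a1, which was lower in replicate 3 than the mean of replicates 1 and 2 by a log2 difference of -0.68, and 8.78% of all genes departed by more in either direction. Hk1 was lower there too (-0.44), while Hk2 was higher (0.41), so the hexokinase genes departed in opposite directions in this array. At Slc2a3, Pfkl and Pfkp the departure was smaller than the median size over all genes, 0.17. Syt1, a gene of synaptic vesicles, differed in the same array by -2.08, and Dcx by -1.20, and their part in these departures was not tested.

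**Figure D4:**
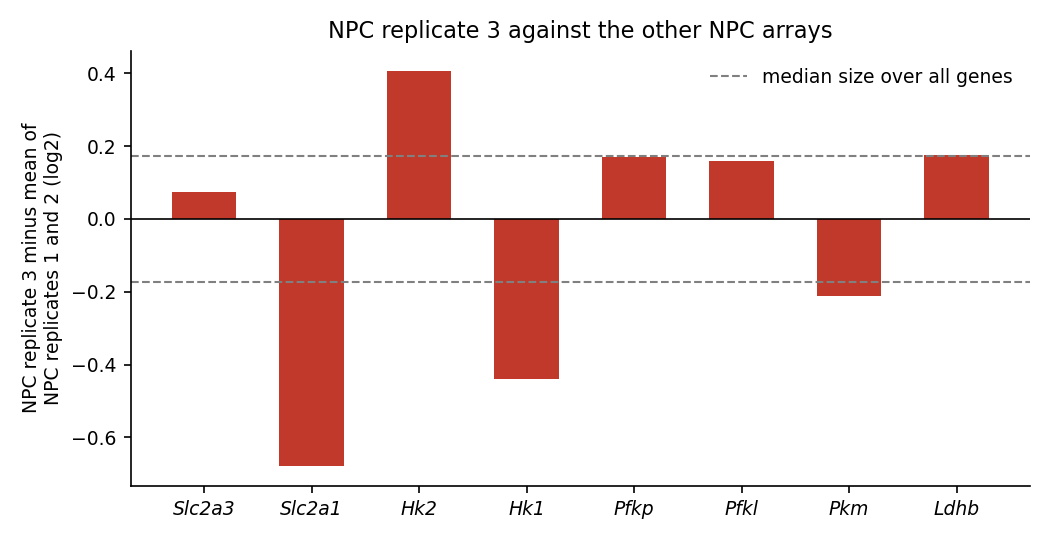
Value of each gene in NPC replicate 3 minus its mean in NPC replicates 1 and 2 (log2 scale); dashed lines mark the median size of this departure over all genes (0.17). Slc2a1 (-0.68) and Hk1 (-0.44) are lower in replicate 3 and Hk2 (0.41) is higher.

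The start regions of these genes are shown as a description, and a link between their letters and the falls was not tested. RefSeq (GRCm38.p6) gives 9 windows for 7 of the 8 genes, each from 250 bases before to 50 bases after an annotated start, with Hk1 and Pkm having 2 starts each. Slc2a3 has no entry in the table used. The lines below give, 5′ to 3′ on the strand of the gene, the windows of Slc2a1 and Pfkp, which fell most among the genes with a window, and of Hk2 and Hk1, which serve the same step, Hk2 having passed the test and Hk1 not. Capitals mark ACGTG, a form of the core of the hypoxia response element, and GGGCGG, the GC box, each on either strand. The other form of that core, GCGTG, was neither marked nor counted.
Slc2a1, chr4:119108495-119108794, plus strand: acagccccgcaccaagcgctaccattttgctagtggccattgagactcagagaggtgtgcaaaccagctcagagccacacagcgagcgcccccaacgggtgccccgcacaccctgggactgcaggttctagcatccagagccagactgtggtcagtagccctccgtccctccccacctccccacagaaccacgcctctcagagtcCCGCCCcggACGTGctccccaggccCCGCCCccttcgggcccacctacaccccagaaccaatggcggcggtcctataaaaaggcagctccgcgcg
Pfkp, chr13:6648722-6649021, minus strand: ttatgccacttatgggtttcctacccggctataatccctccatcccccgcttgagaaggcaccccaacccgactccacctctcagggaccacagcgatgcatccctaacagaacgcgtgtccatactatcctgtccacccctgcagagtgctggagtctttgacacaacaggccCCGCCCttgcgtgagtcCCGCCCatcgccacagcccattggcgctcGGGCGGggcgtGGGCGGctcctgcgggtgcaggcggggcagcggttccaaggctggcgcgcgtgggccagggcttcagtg
Hk2, chr6:82774405-82774704, minus strand: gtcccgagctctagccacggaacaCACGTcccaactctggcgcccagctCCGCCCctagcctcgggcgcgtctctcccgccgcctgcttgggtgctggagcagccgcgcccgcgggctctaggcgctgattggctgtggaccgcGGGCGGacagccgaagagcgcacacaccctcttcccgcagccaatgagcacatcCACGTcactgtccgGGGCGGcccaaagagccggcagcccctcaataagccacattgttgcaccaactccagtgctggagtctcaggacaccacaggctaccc
Hk1, the downstream start, chr10:62340372-62340671, minus strand: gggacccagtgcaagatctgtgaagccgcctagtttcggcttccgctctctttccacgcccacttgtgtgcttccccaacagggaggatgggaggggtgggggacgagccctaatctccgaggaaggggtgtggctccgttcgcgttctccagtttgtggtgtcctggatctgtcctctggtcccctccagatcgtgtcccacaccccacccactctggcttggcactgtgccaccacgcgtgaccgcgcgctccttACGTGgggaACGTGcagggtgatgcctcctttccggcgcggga
ACGTG occurs in 4 of the 9 windows, those of Slc2a1, Hk2, the downstream start of Hk1 and the downstream start of Pkm, and in 19.6% of 32851 promoter windows of the same length. ACGTG was not found in the windows of Pfkp, Pfkl and Ldhb or at the upstream starts of Hk1 and Pkm. The windows of Pfkp, Pfkl and Ldhb do hold the uncounted form GCGTG, so they do not lack the core. GGGCGG occurs in 5 windows, those of Slc2a1, Hk2, Pkm (upstream start), Pfkp and Pfkl, against 35.7% of all windows. The E-box CACGTG, which holds ACGTG within it, occurs in none of the 9, against 7.15% of all. Neither does the octamer ATGCAAAT (1.74% of all), while the SOX core CATTGTT occurs in the window of Hk2 (3.78% of all) and TATAAA in that of Slc2a1 (13.6% of all). G and C made up between 51.3% of a window, at the upstream start of Hk1, and 67.3%, at Hk2, where the median of all windows is 52.7%. A match describes letters and not binding, and no match covers only this window.

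Other genes of sugar transport and glycolysis were read from a list by symbol, but few could be named. Including the 8 genes above, names were at hand for 7 of 26 glycolytic enzymes, 4 of 19 sugar and monocarboxylate transporters and none of 12 regulators of glycolysis. Names other than those of the 8 came from a list of genes that rise in NPCs, so the direction of the following is set by how they were named. Aldoc, for the aldolase of brain, read 8.08, 8.10 and 8.12 in ESCs and 10.44, 10.44 and 10.94 in NPCs, a log2 difference of 2.51 (standard error 0.15, adjusted p = 9.49e-06 from limma). Its direction is opposite to that of the 7 enzymes and transporters that fell. Slc2a9, for a transporter of urate and sugars, read 3.30, 3.45 and 3.80 in ESCs and 4.48, 4.51 and 5.49 in NPCs, with replicate 3 highest. Slc2a13, for the proton myo-inositol transporter, read 3.21, 3.44 and 3.88 in ESCs and 5.89, 5.87 and 4.62 in NPCs, with replicate 3 lowest. Both were called (adjusted p = 0.00671 and 0.00305 from limma), with log2 differences of 1.31 and 1.95.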

How the data were processed

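RNA of 3 ESC and 3 NPC replicates was hybridized to Affymetrix mouse arrays. The authors deposited log2 values from RMA, which subtracts background, brings the probes of all arrays to the same distribution and combines them into a value per Ensembl gene, here with updated BrainCDF probe sets. Their version and genome build were not given in the sources used. Of 17208 rows, 64 control probe sets were left out and no further normalization or filter was applied. Array medians ran from 5.59 to 5.76.

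Differences were tested in R 4.3.3 with lmFit and eBayes of limma 3.58.1 (all 6 arrays, no covariates), with the thresholds of the study's methods, whose moderated Welch test was rebuilt as an alternative. The test was checked on simulated data in which 200 of 17144 genes changed. There limma called 75 of 100 genes changed 2-fold, 99 of 100 changed 4-fold and 4 unchanged genes. The simulated noise was independent between genes, and far fewer genes changed than were called in the data, so its setting differs from theirs. A percentile is the share of genes that do not exceed a value on the same array. Pairs were tested by exact permutation over arrays. Figures were drawn with Python 3.11.15 and matplotlib 3.10.9.

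The 10 genes and all lists were chosen with earlier results of these data known. The text names all of the genes with a row and every nameable gene of the lists of sugar, serine and folate metabolism, with cell type markers as a check. The 8 genes were named by the identifiers of the list. Other names were taken where all 6 array values equalled those of a named row in the study's tables within 0.0001, which gave 2012 named genes in all, nearly all of them genes that rose. The search for genes most like Tdh and the pair of lactate dehydrogenase genes could not be run, and motifs were chosen after the values were seen. The alternatives were the moderated Welch test, a mean-variance trend, quantile normalization, median centring, a filter at the median, a replicate block, other fold thresholds and each array left out in turn.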

Additional observations from a re-analysis of the deposited data

How the results depend on the processing

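The 7 genes Slc2a3, Slc2a1, Hk2, Pfkp, Pfkl, Pkm and Ldhb were called lower in NPCs under each of the 14 alternatives, and Hk1 under none. The log2 difference of Hk1 lay between -0.44, without NPC replicate 2, and -0.17, after median centring. The adjusted p of Hk1 from limma was 0.0337 without NPC replicate 2 and between 0.0737 and 0.331 otherwise, and its difference never reached 1.5-fold. The differences of the other genes moved by less than 0.3 on the log2 scale. Among all genes 5851 were called, 2638 of them higher. A threshold of 2-fold, which can only lower the number, gave 3592 (1615 higher and 1977 lower). Leaving out single arrays gave 5637 to 6199. Median centring turned the balance to 3302 higher and 2642 lower, and quantile normalization to 2974 higher and 2900 lower. The shift of Hk2 minus Hk1 lay between -1.95 and -1.44 with each array left out, that of Pfkp minus Pfkl between -1.15 and -1.08 and that of Slc2a3 minus Slc2a1 between -3.08 and -2.67. Deviations from the group means correlated at 0.0264, 0.0110 and -0.00645 across genes for arrays numbered 1, 2 and 3, so equal numbers do not pair the arrays. A fit with the replicate block called 5867 genes, among them 7 of the 8 genes of glucose transport and glycolysis. The signal of an array has no true zero, which limits the fold of genes low in NPCs.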

Other observations

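Enzymes that make serine and glycine and feed folate metabolism branch off glycolysis at 3-phosphoglycerate. Of 20 such genes on the list, names were at hand for 7, and all 7 were called higher in NPCs, by 0.85 to 4.77 on the log2 scale. They were named from a list of genes that rise in NPCs, so their shared direction is set by the naming, and 15.4% of all genes were called higher. The largest rise was at Aldh1l2, a mitochondrial enzyme of folate metabolism, which read 4.60, 4.71 and 4.52 in ESC replicates 1 to 3 and 9.27, 9.28 and 9.60 in NPC replicates 1 to 3. Mthfd2l, for another mitochondrial folate enzyme, rose by 3.46 (standard error 0.083, adjusted p = 1.95e-07 from limma). Phgdh, Psat1 and Psph, which make serine in that order, rose by 1.27, 0.85 and 1.498, and Shmt2 and Mthfd2, which pass its carbon to folate in mitochondria, rose by 1.37 and 1.19.

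At 4 of these 7 genes NPC replicate 3 was over 0.5 above the mean of NPC replicates 1 and 2 on the log2 scale. Over all genes, 14.9% departed by more than 0.503 in either direction. The 7 genes were named from genes that rise in NPCs, so this count cannot be read as a trait of the pathway. Mthfd2 read 9.90, 9.98 and 11.15 in NPC replicates 1 to 3 and Shmt2 10.92, 10.997 and 11.96, while Mthfd2l read 7.47, 7.51 and 7.61. Pck2, the mitochondrial enzyme that makes phosphoenolpyruvate from oxaloacetate, read 8.53, 8.49 and 9.78 against 6.71, 6.65 and 6.71 in ESCs. Fbp1, an enzyme of gluconeogenesis, went the other way in replicate 3, at 7.12, 6.73 and 5.62 against 4.96, 5.02 and 5.36 in ESCs. Pck2 and Fbp1 were the only 2 genes with names at hand among 14 listed enzymes of the pentose phosphate pathway and gluconeogenesis. They too were named from genes that rise in NPCs, so their shared direction is set by the naming. Both genes were called higher in NPCs (log2 differences of 2.24 and 1.38, adjusted p = 0.00101 and 0.0154 from limma). Without detection calls these values do not set which transcripts were present, and what set replicate 3 apart was not tested.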
